A study of Mus musculus with 12 samples.

Results

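Transcripts used as markers of spermatogonia, the mitotic germ cells at the base of the seminiferous tubule, were followed in testis RNA of Wobbler mice with a modifier, Wobbler mice and wildtype mice. All probes whose platform gene symbol was one of 10 such genes were taken, whatever their values. Of the 10, 5 genes had a probe, Gfra1, Zbtb16, Id4, Uchl1 and Ddx4, with 6 probes in all because Id4 had 2. They stand against 16255 features of the whole array, of which 14729 were tested; all 5 genes were among those tested. Kit, Dazl, Stra8, Sohlh1 and Nanos3 had no probe named for them and were not analysed here.

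The modifier animals were Wobbler mice carrying a modifier that the labels do not describe further. The others were Wobbler mice without it, and wildtype mice. All were males on a Castaneus background, and per the channel labels each labelled RNA was a pool of 3 animals from whole testis. The labelling protocol instead speaks of a reference pool of 6 control animals, which no channel label names; the channel labels were followed, so what each ratio compares rests on them. The labels used here give no ages. The Wobbler mutation lies in Vps54, part of the complex by which vesicles are caught at the Golgi, and homozygous mice lose motor neurons and have infertile males. The 3 pairs of genotypes were each hybridised on 4 arrays with 2 dyes, and on 2 of the 4 the dyes were exchanged. Nothing says whether the arrays of a pair came from separate pools, so the p-values below reflect array-to-array spread, which may be technical only.

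A small pool of stem spermatogonia both renews itself and gives rise to cells committed to meiosis. Glial cell line-derived neurotrophic factor from Sertoli cells acts on them through the receptor GFRA1 and its partner RET and favours renewal. The transcription factor ZBTB16, also called PLZF, holds back differentiation, and ID4 marks the most stem-like cells. Later, KIT and the retinoic acid target STRA8 mark cells on the way to meiosis. These genes are not confined to spermatogonia: Ddx4, also called Mvh or Vasa, is also active in meiotic cells and round spermatids, Uchl1 in neurons, and Id4 in Sertoli cells. The arrays give ratios and no levels, so whether each transcript was well above background could not be checked here. In whole testis, fewer cells of a type and less RNA per cell cannot be told apart.

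Sequences before a transcription start of Ddx4 and of Gfra1 are shown because these genes had the smallest p-values in the comparisons below. Each line gives the 250 bases before an annotated transcription start, 5′ to 3′ on the strand of the gene, from RefSeq on GRCm38.p6. The Ddx4 window lies at chr13:112652311-112652560 and the Gfra1 window at chr19:58455399-58455648, both on the minus strand. Both windows lie inside the annotated spans of their genes, which reach 112652633 and 58455946. The starts they precede are therefore not the outermost ones. Capitals mark every E-box, the letters CANNTG, a pattern that fits both strands alike. E-boxes include the sites of the E proteins that ID4 sequesters, but not every match need be such a site.
Ddx4: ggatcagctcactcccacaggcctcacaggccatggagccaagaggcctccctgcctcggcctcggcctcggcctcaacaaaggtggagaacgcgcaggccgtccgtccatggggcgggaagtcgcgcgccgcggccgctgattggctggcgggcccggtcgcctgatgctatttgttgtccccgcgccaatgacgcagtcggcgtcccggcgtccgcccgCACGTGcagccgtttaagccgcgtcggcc
Gfra1: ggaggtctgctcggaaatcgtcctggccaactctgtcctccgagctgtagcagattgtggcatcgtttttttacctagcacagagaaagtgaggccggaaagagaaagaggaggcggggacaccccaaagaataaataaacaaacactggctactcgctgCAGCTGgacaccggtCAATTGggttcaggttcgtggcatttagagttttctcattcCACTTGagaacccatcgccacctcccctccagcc
The Ddx4 window held 1 E-box and the Gfra1 window 3, of which 1 had the letters CAGCTG. The windows of Uchl1 and Id4 held 0. An E-box was present in 66.2% of 32851 promoter windows of this length, and CAGCTG in 13.0%, so these matches are common and are only descriptions of the sequence. The GC box, GGGCGG on either strand, occurred 2 times in the Ddx4 window, 5 times in that of Id4 and 0 times in those of Gfra1 and Uchl1, and was present in 32.7% of all windows. The Ddx4 window held 31 CG dinucleotides and that of Id4 35, against a median of 6. No window is described for Zbtb16.

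None of the 5 genes passed the test in any comparison. In Wobbler over wildtype 0 of 5 were called by limma (Benjamini-Hochberg adjusted p under 0.05 over all features), where 0.306% of features were called. The count was 0 of 5 in modifier over wildtype, where 0.733% of features were called. It was also 0 of 5 in modifier over Wobbler, where 0.414% of features were called. At an unadjusted p under 0.05, 2 genes were higher in Wobbler over wildtype, Gfra1 and Ddx4, where 7.22% of features were higher at that level, and 0 were lower, against 8.47% of features. Modifier over wildtype had 0 genes at that level in either direction, where 7.33% of features lay in both together. Ddx4 alone was higher in modifier over Wobbler, where 7.03% of features were, and 0 were lower, against 4.47% of features. With only 5 genes, these counts rest on 1 or 2 values and were not tested against these shares.

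Each ratio is a log2 value of the genotype named first against the one named second. Its sign was read from the titles of the arrays and the customary Cy5 over Cy3 order, and so is likely rather than settled. Read as channel 1 over channel 2, the fitted ratios of Uchl1 and Id4 in Wobbler over wildtype, and of Uchl1, Ddx4 and Id4 in modifier over wildtype, were positive, where they are negative below. Over all features, the mean of the arrays with the first-named genotype in Cy5 correlated little with that of the arrays with it in Cy3: r was 0.0501 for Wobbler over wildtype, 0.139 for modifier over wildtype and 0.0522 for modifier over Wobbler, across 13289 to 14460 features that are not independent replicates. Array SDs lay between 0.617 and 1.61, the widest being replicate 2 of Wobbler over wildtype. Fitted ratios carry the SE of 1 fit over all 12 arrays, with 4 arrays per comparison. With 4 arrays, an exact sign test of a single gene could not go below a two-sided p of 0.125.

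**Figure D1:**
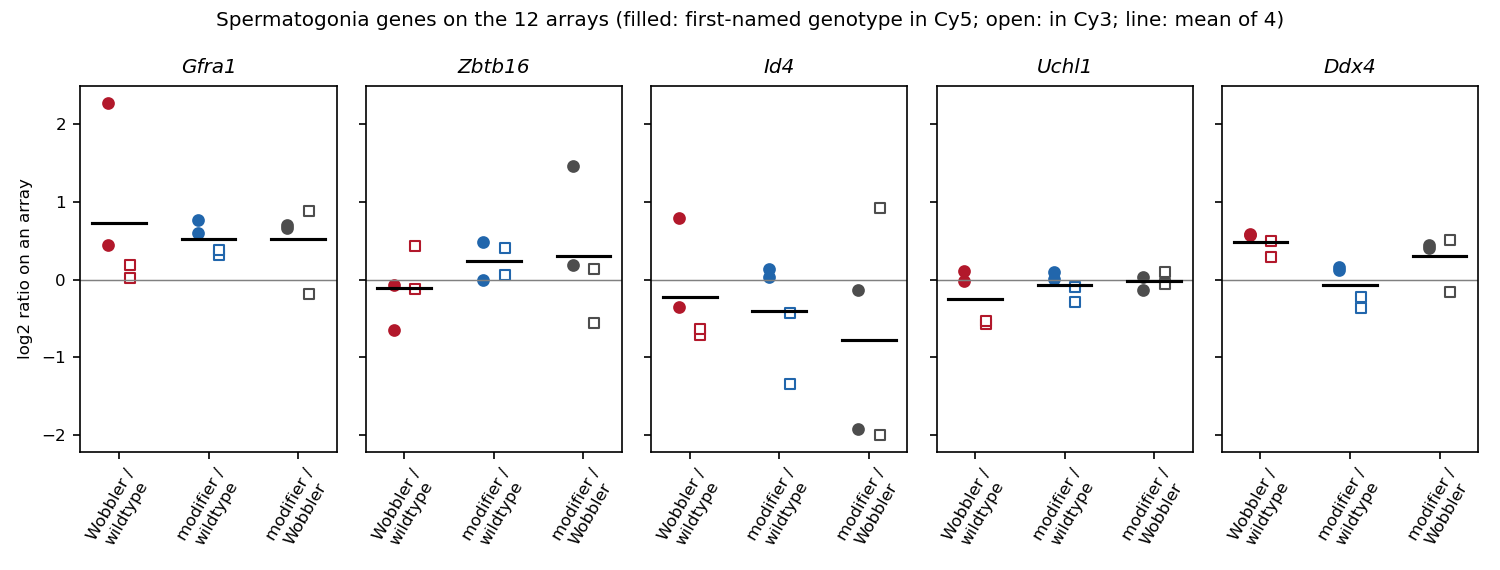
Log2 ratio (vertical axis) of the 5 spermatogonia genes on each of the 12 arrays, by comparison (horizontal axis); filled circles have the first-named genotype in Cy5, open squares in Cy3, and lines are means of 4 arrays. Ddx4 lies between 0.29 and 0.59 on all 4 arrays of Wobbler over wildtype, while Id4 spans -2.0 to 0.93 in modifier over Wobbler.

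Gfra1 encodes the GDNF co-receptor of stem spermatogonia (mouse chromosome 19, 1 probe). In Wobbler over wildtype its log2 ratio was 0.44, 2.28, 0.02 and 0.19 on replicates 1 to 4. All 4 arrays were positive, but 1 of them, the widest array of the study, was far above the rest. Its fitted value was 0.73 ± 0.28 (SE, n = 4), with a limma adjusted p of 0.263, but only 0.27 without replicate 2. The share of features positive on all 4 arrays was 6.03%.

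Gfra1 in modifier over wildtype had log2 ratios of 0.77, 0.60, 0.32 and 0.38 on replicates 1 to 4. These 4 arrays lay close together and on 1 side, in both dye orientations. The fit gave 0.52 ± 0.28 (SE, n = 4), or 1.43-fold, with a limma adjusted p of 0.868 and a 95% interval from -0.10 to 1.14. The SD over the 4 arrays themselves was 0.21. With array weights the ratio was 0.51 and passed, with an adjusted p of 0.0405, in a fit that called 709 features in place of 108. The share of features positive on all 4 arrays was 8.69%.

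Gfra1 in modifier over Wobbler had log2 ratios of 0.67, 0.71, -0.18 and 0.89 on replicates 1 to 4. Only replicate 3 was negative. The fit gave 0.52 ± 0.28 (SE, n = 4), with a limma adjusted p of 0.514. Gfra1 was therefore positive on 11 of 12 arrays, and 1.24% of features measured on every array were positive on at least 11. Read as channel 1 over channel 2, Gfra1 was positive on 7 of 12 arrays, where 75.3% of features were positive on at least 7, and its fitted ratio was 0.63 in Wobbler over wildtype but 0.17 in both modifier comparisons. The 3 comparisons share genotypes, and a gene cannot be higher in each of the 3 by these amounts and close the loop: the direct modifier over Wobbler ratio of 0.52 stood against an indirect one of -0.21. Their difference was 0.73 ± 0.48 (SE), with a limma adjusted p of 0.736.

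Zbtb16 encodes the repressor that holds spermatogonia undifferentiated (chromosome 9, 1 probe). In Wobbler over wildtype its log2 ratio was -0.07, -0.65, 0.44 and -0.12 on replicates 1 to 4, on both sides of 0. The fit gave -0.10 ± 0.28 (SE, n = 4), and it turned to 0.14 without replicate 2.

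Zbtb16 in modifier over wildtype was at -0.006, 0.49, 0.06 and 0.41, so that 3 of 4 arrays were positive. Its fitted value was 0.24 ± 0.28 (SE, n = 4). Arrays of modifier over Wobbler gave 0.19, 1.47, 0.14 and -0.56, where replicate 2 alone lay above 1. The fitted value of 0.31 ± 0.28 (SE, n = 4) became -0.09 without that replicate. The limma adjusted p of Zbtb16 was 0.874, 1 and 0.742 in Wobbler over wildtype, modifier over wildtype and modifier over Wobbler. The intervals were wide: the 95% interval in modifier over Wobbler ran from 0.807-fold to 1.90-fold.

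Id4 encodes an inhibitor of DNA binding that pairs with E proteins (chromosome 13). Its 2 probes, averaged on each array, had the same sign on 7 of 12 arrays and correlated at r = 0.632 over the 12. In Wobbler over wildtype the average was -0.35, 0.80, -0.71 and -0.64 on replicates 1 to 4, and in modifier over wildtype it was 0.04, 0.13, -1.35 and -0.43. For modifier over Wobbler it was -0.13, -1.92, -2.0 and 0.93. In each comparison the arrays lay on both sides of 0, and over all 12 arrays its residual spread was the widest of the 5 genes; in Wobbler over wildtype alone Gfra1 spread more, with an array SD of 1.05 against 0.698 for Id4.

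The fitted ratios of Id4 were -0.22 ± 0.46, -0.40 ± 0.46 and -0.78 ± 0.46 (SE, n = 4 each) in Wobbler over wildtype, modifier over wildtype and modifier over Wobbler. Their limma adjusted p-values were 0.833, 1 and 0.562. The residual SD of Id4 was 1.02, against a median of 0.43 over all features, and 85.6% of features had a smaller one. The 2 probes by themselves gave -1.12 and -0.44 in modifier over Wobbler, both negative. The averaged ratio there ranged from -1.51 to -0.27 as single arrays were left out, and the 95% interval ran from 0.285-fold to 1.19-fold. A level of 0.5 times that of the second genotype lay within the interval of Id4 in each comparison, so a change of that size would not have been detectable with this spread.

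Uchl1 encodes a ubiquitin hydrolase of spermatogonia and neurons, also called PGP9.5 (chromosome 5, 1 probe). In Wobbler over wildtype its log2 ratio was 0.12, -0.02, -0.57 and -0.53 on replicates 1 to 4. The arrays split by dye: the mean was 0.05 with Wobbler RNA in Cy5 and -0.55 with it in Cy3. Their medians over all usable spots split too, at 0.116, 0.025, -0.217 and -0.098 on replicates 1 to 4. Only 35.7% of features had a smaller dye term than Uchl1 in the fit, so the split was not particular to Uchl1. The fit gave -0.25 ± 0.12 (SE, n = 4), with a limma adjusted p of 0.343.

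Uchl1 in modifier over wildtype was at 0.006, 0.10, -0.28 and -0.10, and in modifier over Wobbler at -0.14, 0.04, -0.05 and 0.10. The last 4 values were the tightest of any gene and comparison here, with an SD of 0.10 and a mean of -0.01. The fit for modifier over Wobbler was 0.991-fold, with a 95% interval from 0.824-fold to 1.19-fold. For modifier over wildtype it was 0.953-fold, with an interval from 0.792-fold to 1.15-fold. The limma adjusted p was 0.985 for modifier over Wobbler and 1 for modifier over wildtype. These intervals reflect array-to-array spread, which may be technical only, and do not show that Uchl1 was equal. The residual SD of Uchl1 was 0.19, and 7.99% of features had a smaller one.

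Ddx4 encodes the germ cell RNA helicase of the nuage (chromosome 13, 1 probe). In Wobbler over wildtype its log2 ratio was 0.57, 0.59, 0.49 and 0.29 on replicates 1 to 4, positive in both dye orientations. The fit gave 0.49 ± 0.12 (SE, n = 4), or 1.40-fold with a 95% interval from 1.16-fold to 1.69-fold. The limma p was 0.00234 before and 0.129 after adjustment over all features, and 1.81% of features had a smaller p. This was the smallest p of the 5 genes over the 3 comparisons, and it missed the threshold. It depends on the direction: read as channel 1 over channel 2, Ddx4 was at 0.0955 ± 0.178 (SE) there, with a limma adjusted p of 0.812, and Uchl1 and Gfra1 had smaller adjusted p-values, 0.304 and 0.311. Within each array, Ddx4 stood above 84.1%, 71.9%, 87.7% and 84.8% of features on replicates 1 to 4, so many features had larger ratios. Its adjusted p lay between 0.105 and 0.327 as single arrays were left out.

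Ddx4 in modifier over wildtype was at 0.13, 0.17, -0.37 and -0.22. These arrays split by dye, with a mean of 0.15 when the modifier RNA was in Cy5 and -0.30 when it was in Cy3. Their medians over all usable spots split too, at 0.159, 0.129, -0.179 and -0.096 on replicates 1 to 4. Only 41.5% of features had a smaller dye term than Ddx4 in the fit, so the split was not particular to Ddx4. The fit gave -0.07 ± 0.12 (SE, n = 4), with a limma adjusted p of 1. The values of Ddx4 in modifier over Wobbler were 0.41, 0.45, -0.155 and 0.51, and replicate 3 alone was negative. The fit gave 0.30 ± 0.12 (SE, n = 4), with a limma adjusted p of 0.378.

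By their fitted values the Ddx4 ratios did not close their loop, but the difference did not pass the test. Wobbler over wildtype at 0.49 and modifier over wildtype at -0.07 put modifier over Wobbler at -0.56 ± 0.17 (SE) by the indirect route, with a 95% interval from -0.94 to -0.18. The direct arrays gave 0.30, with an interval from 0.04 to 0.57. The difference, direct minus indirect, was 0.86 ± 0.21 (SE); its limma p was 0.00199 before and 0.458 after adjustment over all features. Of the 5 genes 0 passed this test of the difference, where 0.0272% of features did, and 0.428% of features had a smaller p than Ddx4. Loops closed poorly in general: direct and indirect ratios correlated at r = 0.124 over 14729 features. Read as channel 1 over channel 2, the difference for Ddx4 was -0.002 ± 0.308 (SE). In a fit with 2 genotype coefficients for the whole loop, Ddx4 was at 0.20, 0.21 and 0.02 in Wobbler over wildtype, modifier over wildtype and modifier over Wobbler, so that its negative ratio in modifier over wildtype turned positive.

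**Figure D2:**
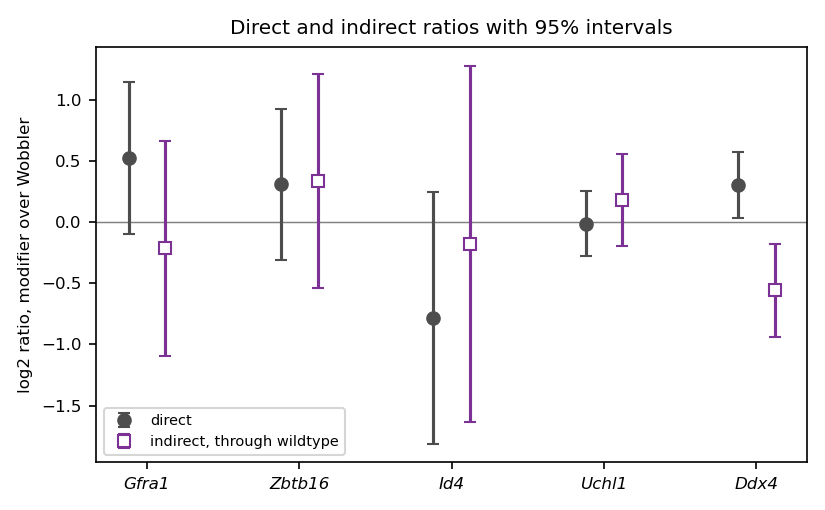
Modifier over Wobbler log2 ratio (vertical axis) of each spermatogonia gene (horizontal axis), measured on the 4 direct arrays (circles) or taken as modifier over wildtype minus Wobbler over wildtype (squares); bars are 95% intervals of the fit. For Ddx4 the direct value is 0.30 and the indirect one -0.56, with intervals that do not overlap under the Cy5 over Cy3 reading; for the other 4 genes the intervals overlap.

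Set side by side, the 5 genes had no common direction. The median of their ratios was -0.10, -0.07 and 0.30 in Wobbler over wildtype, modifier over wildtype and modifier over Wobbler, beside medians over all features of -0.007, 0.01 and 0.08. In the same order, 2, 2 and 3 of the 5 ratios were positive. Most features were positive in modifier over Wobbler, where only 36.6% lay below -0.01. Across the 12 arrays, pairs of these genes correlated between r = -0.66 for Zbtb16 with Id4 and r = 0.64 for Gfra1 with Id4. The arrays share dyes, may share pools and differ in width, and these r are descriptions only.

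The genes most like Ddx4 over the 12 arrays, among 8044 other named genes measured on all of them, were Zc3h14 at r = 0.926, Ppp4r2 at r = 0.926 and Tmem59 at r = 0.922. Without replicate 2 of Wobbler over wildtype these were 0.916, 0.918 and 0.917. The genes most like Gfra1 were Nudt1 at r = 0.972, Pdzd11 at r = 0.968 and Cyb5b at r = 0.967. Without that replicate, where Gfra1 had its highest value, these were 0.902, 0.871 and 0.867. They are the highest of many correlations over few arrays.

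**Figure D3:**
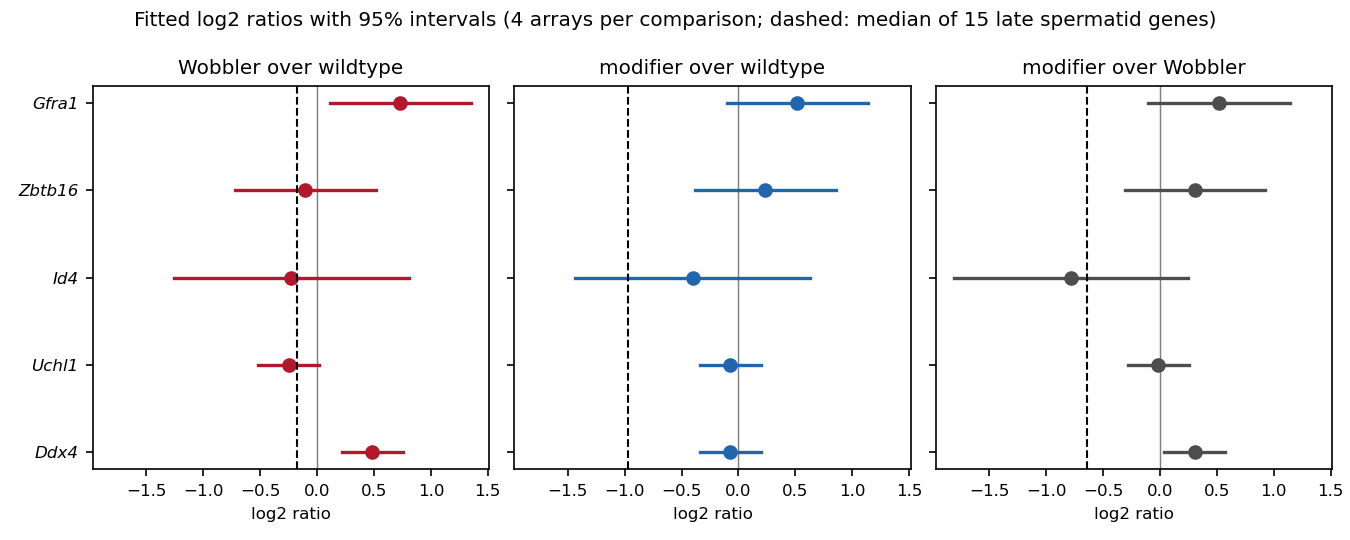
Fitted log2 ratio (horizontal axis) of each spermatogonia gene (rows) in each comparison (panels); bars are 95% intervals, and the dashed line is the median of 15 late spermatid genes. In modifier over wildtype the intervals of 4 genes lie above the late spermatid median of -0.97, and that of Id4 includes it. Only 7.41% of all features had a fitted ratio below -0.40 there. Read as channel 1 over channel 2, 0 of 5 intervals lie above that list's median.

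Late spermatid genes, active in the last germ cells before sperm, were set beside them. Of 15 tested late spermatid genes, 7 fell in modifier over wildtype (Prm1, Prm2, Tnp1, Tnp2, Smcp, Oaz3 and Pgk2), where 0.699% of all features fell, and 0 rose. These encode protamines, transition proteins, a sperm mitochondrial capsule protein, an antizyme and a glycolytic kinase. Of the same 15, 5 fell in modifier over Wobbler (Prm1, Tnp1, Tnp2, Smcp and Oaz3), where 0.299% of all features fell, and 0 rose. Single arrays decided how many passed: the count in modifier over wildtype was 2 without its replicate 1 or its replicate 3 and 3 without its replicate 2, and that in modifier over Wobbler was 0 without its replicate 1 or its replicate 2. The model mattered as well: without the dye term, with the replicate block and with its 4 arrays alone the count in modifier over Wobbler was 0, 2 and 0 in place of 5, and with its 4 arrays alone that in modifier over wildtype was 1 in place of 7. Other settings raised the counts. Scaling arrays to equal spread and array weights each gave 11 in modifier over wildtype. Subtracting array medians, features measured on all 12 arrays, array weights and 2 genotype coefficients each gave 7 in modifier over Wobbler. The list's medians were -0.97 and -0.64 in these comparisons and -0.17 in Wobbler over wildtype, where 0 passed. As single arrays were left out, the first of these medians lay between -1.03 and -0.92. The one in modifier over Wobbler lay between -0.78 and -0.60. These falls were known from earlier results of the same data and are no independent evidence; read as channel 1 over channel 2, 0 of the 15 were lower in either comparison.

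Beside the late spermatid median of -0.97 in modifier over wildtype, the 95% intervals of Gfra1, Zbtb16, Uchl1 and Ddx4 lay wholly above it. The interval of Id4, from -1.43 to 0.62, included it. The same 4 genes lay above the late spermatid median of -0.64 in modifier over Wobbler, and Id4 again did not. Array by array, 19 of 20 values of the 5 genes exceeded the late spermatid median of their array in modifier over wildtype and 18 of 20 in modifier over Wobbler. The 3 exceptions were values of Id4. The count was 11 of 20 in Wobbler over wildtype. All of these counts depend on the direction: read as channel 1 over channel 2, the interval of 0 of 5 genes lay above the late spermatid median in any comparison, and 9, 11 and 10 of 20 array values did in Wobbler over wildtype, modifier over wildtype and modifier over Wobbler. The counts were chosen after the values were seen, and the difference between the gene groups was not tested as such. The fitted ratios of most features also lay above the late spermatid medians of -0.97 and -0.64. Only 7.41% of features were below the -0.40 of Id4 in modifier over wildtype, and 36.6% were below the -0.01 of Uchl1 in modifier over Wobbler. The counts therefore do not set these genes apart from other features.

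The intervals of 4 genes also lay above the median of 9 Leydig cell genes, -0.64 in modifier over wildtype and -0.50 against Wobbler. The fitted ratios of most features lay above these medians too. In modifier over wildtype 7.41% of features were below -0.40, and in modifier over Wobbler 36.6% were below -0.01. Of the 9 Leydig genes, Cyp17a1 and Ephx1, enzymes of steroid synthesis and of epoxide hydrolysis, fell in modifier over wildtype. Of all features, 0.699% fell there. In modifier over Wobbler Cyp17a1 fell, where 0.299% of all features fell. Without any 1 array of modifier over wildtype 1 of the 9 passed there, and without replicate 1 or 2 of modifier over Wobbler 0 passed in that comparison. Read as channel 1 over channel 2, the interval of 0 of 5 spermatogonia genes lay above the Leydig median in either comparison. Sertoli cell genes, which could bear on Id4, had 0 of 13 past the threshold in any comparison and medians of 0.06, -0.03 and -0.02 in Wobbler over wildtype, modifier over wildtype and modifier over Wobbler. Nerve genes, which could bear on Uchl1 and Gfra1, had 0 of 7 past it and medians of 0.22, 0.10 and 0.14. In Wobbler over wildtype 5 of the 7 were positive, and the nerve median lay between -0.11 and 0.81 as single arrays were left out. That median was 1.44 on replicate 2, the array on which Gfra1 was highest. Peritubular and vessel genes had 0 of 7 past the threshold and medians of 0.31, 0.05 and 0.06. The shares of all features past it were 0.306%, 0.733% and 0.414% in the same order of comparisons. Counts of 0 in lists this short lie near these shares. Among 8 meiotic genes, Syce2 of the synaptonemal complex fell in modifier over wildtype. Among 6 macrophage and mast cell genes Tyrobp, an adaptor of myeloid receptors, fell there. The share of all features that fell in that comparison was 0.699%. The part of these cell types in the ratios of the 5 genes was not tested.

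Genes that act with the measured ones, or with those that had no probe, were followed as 6 further lists. Over all features, 0.306%, 0.733% and 0.414% passed in Wobbler over wildtype, modifier over wildtype and modifier over Wobbler. Counts of 0 in each of these short lists lie near these shares. Of the 17 tested genes of GDNF signalling and stem cell renewal, 0 rose or fell in any comparison. Those with the smallest p were Pou5f1, a pluripotency factor, at 0.47 in Wobbler over wildtype (limma adjusted p 0.215), Bmi1, a Polycomb subunit, at -0.42 there (adjusted p 0.247), and Epcam, a surface adhesion molecule of spermatogonia, at 0.34 in modifier over Wobbler (adjusted p 0.293). The list's medians were -0.03, 0.14 and 0.07 in Wobbler over wildtype, modifier over wildtype and modifier over Wobbler, and 8, 15 and 11 of 17 ratios were positive. Medians over all features were -0.007, 0.01 and 0.08. In modifier over Wobbler most features were therefore positive too, and the counts were not tested against this background.

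Kit itself was not measured, and of the 12 tested genes of KIT signalling and differentiating spermatogonia 0 passed in any comparison. The smallest p-values were all in Wobbler over wildtype. Shc1, an adaptor of receptor kinases, was at 1.23 (adjusted p 0.160), Pik3r1, the regulatory subunit of PI 3-kinase, at -0.61 (adjusted p 0.214), and Pcna, the replication clamp, at 0.32 (adjusted p 0.219). Their medians were 0.05, 0.02 and 0.03 in Wobbler over wildtype, modifier over wildtype and modifier over Wobbler.

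Stra8 was not measured either, and of the 8 tested genes of retinoic acid handling and entry into meiosis 0 passed. Meioc, which mouse germ cells need to progress through meiosis, was at -0.47 in Wobbler over wildtype (limma adjusted p 0.116). Aldh1a1, an enzyme that makes retinoic acid, was at -1.07 in modifier over wildtype (adjusted p 0.350) and -0.82 in modifier over Wobbler (adjusted p 0.412). Aldh1a1 in modifier over wildtype passed without replicate 2 of Wobbler over wildtype (adjusted p 0.0240), with arrays scaled to equal spread (adjusted p 0.0156) and with array weights (adjusted p 0.00312). Cyp26b1, which breaks retinoic acid down, was at 0.39 in modifier over Wobbler (adjusted p 0.278).

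Dazl and Nanos3, germ cell regulators of mRNA, had no probe, and of the 9 tested germ cell RNA-binding proteins 0 passed. Pabpc1, the poly(A)-binding protein, was at 0.65 in Wobbler over wildtype (limma adjusted p 0.0829) and 0.37 in modifier over Wobbler (adjusted p 0.295). Piwil2, an Argonaute protein of the piRNA pathway in which Ddx4 also acts, was at 0.37 and 0.38 in the same comparisons (adjusted p 0.294 and 0.392). Dazap1, a partner of DAZ proteins, was at 0.29 in modifier over Wobbler (adjusted p 0.387). The list's medians were 0.23, 0.15 and 0.28 in Wobbler over wildtype, modifier over wildtype and modifier over Wobbler, and 6, 8 and 7 of its 9 ratios were positive. Medians over all features were -0.007, 0.01 and 0.08, so most features were positive in modifier over Wobbler. These counts were not tested against that background.

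Of the 6 other ID and E proteins, 0 passed. Tcf3, an E protein bound by ID proteins, was at 0.40 in Wobbler over wildtype (limma adjusted p 0.181) and 0.36 in modifier over Wobbler (adjusted p 0.287). Id2, a paralog of Id4, was at 0.46 in modifier over Wobbler (adjusted p 0.371), and Tcf4, another E protein, at 0.19 in Wobbler over wildtype (adjusted p 0.677). The medians were 0.19, 0.16 and 0.07 in Wobbler over wildtype, modifier over wildtype and modifier over Wobbler. Of 4 further members of the ubiquitin hydrolase family of Uchl1, 1 had a probe and 0 had enough values to be tested.

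**Figure D4:**
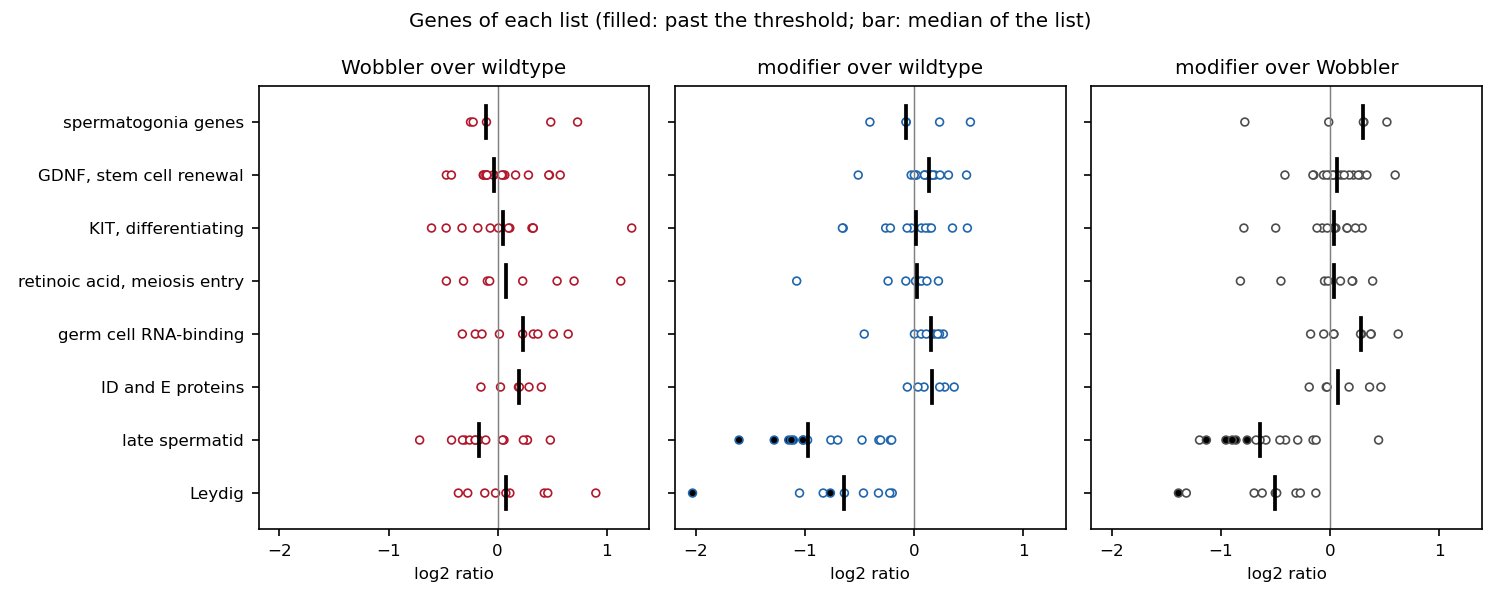
Fitted log2 ratio (horizontal axis) of every tested gene (points) of 8 lists (rows) in the 3 comparisons (panels); filled points passed the threshold and bars are list medians. Filled points occur in the late spermatid and Leydig rows of the 2 modifier panels and in no spermatogonia row.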

How the data were processed

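Testis RNA was measured on 12 two-colour arrays. The deposited values are log2 ratios, 1 for each spot of each array, with the log base read from the values; how the authors scanned, background-corrected or normalized the arrays is not stated in the labels. On each array 1 repeated value above 15 was read as a code for an unusable spot and treated as missing (22 to 165 spots); no value of a spermatogonia gene was coded. Each array kept 18325 to 19584 usable spots, and the number of arrays limits the precision. Ratios of replicates 3 and 4, where the first-named genotype was in Cy3, were multiplied by -1. Read so, direct and indirect modifier over Wobbler ratios correlated at r = 0.124 over 14729 features, and at 0.00619 with no array turned.

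Probes of 1 symbol were averaged (14030 of 20355 probes had 1 symbol, 5 several, 6320 none; all but 36 gene IDs matched the GRCm38.p6 gene table, which changed 0 symbols). Features with at least 3 of 4 arrays in every comparison were fitted with limma 3.58.1 (R 4.3.3), with 1 mean per comparison and a dye term, and adjusted by Benjamini-Hochberg at 0.05. The fit was tested on simulated data. The design was taken from the labels, and alternatives changed centring, scaling, dye term, block, filter, probe averaging, weights, model, reading of the ratios, dim or coded spots and the arrays used.

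All spermatogonia genes are named. Of the other lists, those past the threshold are named, with up to 3 per list of smallest p given for the lists of acting genes. The 3 genes most correlated with each of the 2 spermatogonia genes of smallest p are also named. Members and lists were chosen with earlier results of these data known. Probe sequences were not used here.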

Additional observations from a re-analysis of the deposited data

Results flagged for a closer look

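Of 15 groups of 4 arrays examined, 5 genes in 3 comparisons, 1 held an array far from the other 3, where chance gives about 1 in 20 groups. In modifier over Wobbler Ddx4 was at -0.155 on replicate 3 and between 0.41 and 0.51 on the other 3 arrays. Without replicate 3 the fitted ratio was 0.42, with a limma adjusted p of 0.245, against 0.30 and 0.378 with it.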

How the results depend on the processing

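The spermatogonia genes called were 0 of 5 in every comparison, and stayed 0 under each alternative run and each array left out, except that array weights called 1 in modifier over wildtype, Gfra1. The test of direct minus indirect ratios called 0 of 5 throughout. Of 183 ratios of these genes recomputed with all arrays, 9 changed sign. Read as channel 1 over channel 2, Wobbler over wildtype gave 0.30 for Uchl1 and 0.45 for Id4, and modifier over wildtype gave 0.12 for Uchl1, 0.22 for Ddx4 and 0.49 for Id4. Array weights gave Zbtb16 0.018 in Wobbler over wildtype, and 1 probe of Id4 alone gave 0.051 there. With 2 genotype coefficients Ddx4 was at 0.21 in modifier over wildtype and Uchl1 at 0.051 in modifier over Wobbler. Leaving out single arrays, the ratio of Zbtb16 lay between -0.34 and 0.14 in Wobbler over wildtype and between -0.093 and 0.60 in modifier over Wobbler, that of Uchl1 between -0.10 and 0.082 in modifier over Wobbler, and that of Tcf4 between -0.033 and 0.49 in Wobbler over wildtype. Read as channel 1 over channel 2, Wobbler over wildtype gave 0.22 for Bmi1, 0.12 for Pik3r1, -0.11 for Shc1 and 0.21 for Meioc, modifier over wildtype gave 0.31 for Aldh1a1, and modifier over Wobbler gave 0.041 for Aldh1a1 and -0.031 for Epcam.

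The features called in all, the background of these counts, moved more. In the order Wobbler over wildtype, modifier over wildtype and modifier over Wobbler they were 45, 108 and 61. They were 24, 46 and 7 without the dye term, 0, 224 and 207 with 2 genotype coefficients, 0, 4 and 0 with each comparison fitted alone, 87, 165 and 110 with every probe by itself, and 0 in each when read as channel 1 over channel 2. Array weights gave 22 in Wobbler over wildtype and 709 in modifier over wildtype. Scaling arrays to equal spread gave 24 in Wobbler over wildtype, 6 higher and 18 lower in place of 18 and 27, and 438 in modifier over wildtype, 69 higher and 369 lower in place of 5 and 103. Single arrays left out gave 18 to 54, 20 to 154 and 0 to 128. With the replicate block the counts were 22, 58 and 24, and 0 of 5 spermatogonia genes. Whether the replicate numbers pair the arrays is not settled. Residuals of same-numbered arrays correlated between -0.318 and 0.00366 over 12 pairs. A Wobbler pool shared by Wobbler over wildtype and modifier over Wobbler would enter with opposite signs. No r of differently numbered arrays is given for comparison. The cause of these shifts was not tested. Intensities were not used here, so dim spots could be left out only by their whole-number ratios, and none of the spermatogonia genes had such a value.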
